A study of Mus musculus with 8 samples.

Results

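The 36 genes described here encode the enzymes and regulators of sterol and fatty acid synthesis and of sterol export, and were chosen by name from the 48321 gene symbols counted in each library. They comprised 6 enzymes of the mevalonate steps, 11 enzymes from squalene to cholesterol, and 5 genes of the SREBP transcription factors and their regulators. The others were 4 genes of fatty acid synthesis, 7 desaturases and elongases, and 3 genes of sterol efflux and its control. The rule itself used no measured value, but the genes were chosen with earlier results of these data known. All 36 were among the 12597 genes that passed the filter on low counts.

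RNA was sequenced from splenic CD8+ T cells, the cytotoxic lineage of T lymphocytes, of C57BL/6 mice. The series describes the mice as *Satb1* F/F; *E8I-cre*, in which a Cre recombinase driven by the E8I enhancer of the *Cd8* locus acts on floxed alleles of *Satb1*, the gene of a chromatin-organising nuclear protein of T cells. The 8 libraries formed 4 groups of 2, labelled WT or KO and day 0 or day 5 of in vitro culture, and the comparisons asked how the genes changed over the culture, whether they differed between the genotype labels, and whether the culture change differed between them. The alleles of the WT mice, the age of the animals, the stimulus given in culture and whether the 2 libraries of a group came from separate animals are not given in the labels, so the p-values measure only the spread between these libraries.

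Between 4170126 and 11117971 reads per library were assigned to genes. The targeted gene did not follow the genotype label at day 0: *Satb1* was at 97.8 and 91.6 CPM (counts per 1000000 assigned reads, on the TMM-scaled library size) in WT and at 144 and 125 CPM in KO. By day 5 it was at 96.5 and 116 CPM in WT and at 56.5 and 62.3 CPM in KO, a difference between KO and WT of -0.84 on the log2 scale (SE 0.15, adjusted p = 0.0162, by the quasi-likelihood test of edgeR, adjusted after Benjamini and Hochberg like all adjusted p-values below). By the same test the difference at day 0 was 0.51 (SE 0.15, adjusted p = 0.125). The change of *Satb1* over the culture differed between the labels by -1.34 (SE 0.21, adjusted p = 0.0269, same test). The counts cover the whole gene, and the floxed part is not named in the labels. A count of *Satb1* need not fall where that part is lost. KO therefore stands throughout for the libraries labelled KO, whatever direction is drawn from them. The 5 T-cell markers *Cd3e*, *Cd3d*, *Cd3g*, *Cd8a* and *Cd8b1* summed to between 9521 and 10683 CPM at day 0. At day 5 their sum was lower, between 6160 and 6871 CPM. Of the other lineages, *Cd4*, *Ms4a1*, *Ncr1*, *Klrb1c*, *Cd14*, *Adgre1* and the haemoglobin genes stayed under 1 CPM in every library, and *Zbtb7b*, *Cd79a*, *Fcer1g* and *Lyz2* reached at most 2.47, 2.26, 1.47 and 3.39 CPM. The myeloid genes *Csf1r* and *Itgam* were at 6.80 to 11.7 CPM and 2.06 to 5.20 CPM at day 0. The B-cell genes *Ighm* and *Cd79b* were present in every library, at between 1392 and 2277 CPM and between 66.7 and 164 CPM.

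Cells make cholesterol from acetyl-CoA through the mevalonate pathway and the cyclisation of squalene, and fatty acids through acetyl-CoA carboxylase and fatty acid synthase, whose products are then lengthened and desaturated. Both routes are under the SREBP transcription factors, which are held in the endoplasmic reticulum by SCAP and the INSIG proteins while sterols are plentiful and released when they run low. The liver X receptors respond to oxysterols and drive the efflux pumps ABCA1 and ABCG1. Lymphocytes that are stimulated to divide are known to draw on these pathways for new membrane.

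The promoter stretches of 5 of the genes are shown because they span the sterol pathway, fatty acid synthesis and efflux, and because 4 of them belong to genes that rose and 1 to the gene that fell most. RefSeq promoter windows of 300 bases (GRCm38.p6, 250 bases before and 50 after the gene start) were given for 29 of the 36 genes, and the part of each lying before the gene is printed 5′ to 3′ along the gene. Capitals mark CCAAT on either strand, the box bound by NF-Y, a factor known to act with SREBP, and the sterol regulatory element searched as TCACNCCAC.
Hmgcs1, chr13:119690101-119690350, forward strand: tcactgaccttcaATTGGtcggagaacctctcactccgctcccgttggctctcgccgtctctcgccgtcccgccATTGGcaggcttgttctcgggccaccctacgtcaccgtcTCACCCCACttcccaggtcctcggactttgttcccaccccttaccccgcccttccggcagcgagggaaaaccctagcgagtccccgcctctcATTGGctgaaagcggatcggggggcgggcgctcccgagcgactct
Mvk, chr5:114444019-114444268, forward strand: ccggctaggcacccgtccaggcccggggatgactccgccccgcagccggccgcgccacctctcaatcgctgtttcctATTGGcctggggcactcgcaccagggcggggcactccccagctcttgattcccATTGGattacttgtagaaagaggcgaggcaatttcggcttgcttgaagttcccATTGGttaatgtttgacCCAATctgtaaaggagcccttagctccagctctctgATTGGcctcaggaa
Mvd, chr8:122443423-122443672, reverse strand: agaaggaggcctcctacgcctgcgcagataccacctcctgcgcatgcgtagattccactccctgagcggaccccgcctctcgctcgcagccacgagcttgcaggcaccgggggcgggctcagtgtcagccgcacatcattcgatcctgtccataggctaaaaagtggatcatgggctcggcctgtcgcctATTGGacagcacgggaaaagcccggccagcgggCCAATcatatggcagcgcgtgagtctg
Fasn, chr11:120824548-120824797, reverse strand: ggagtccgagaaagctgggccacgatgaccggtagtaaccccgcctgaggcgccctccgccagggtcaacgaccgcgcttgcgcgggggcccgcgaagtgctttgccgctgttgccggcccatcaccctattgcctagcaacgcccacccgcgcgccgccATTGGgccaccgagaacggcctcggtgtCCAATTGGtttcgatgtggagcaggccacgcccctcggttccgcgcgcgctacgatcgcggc
Abca1, chr4:53159896-53160145, reverse strand: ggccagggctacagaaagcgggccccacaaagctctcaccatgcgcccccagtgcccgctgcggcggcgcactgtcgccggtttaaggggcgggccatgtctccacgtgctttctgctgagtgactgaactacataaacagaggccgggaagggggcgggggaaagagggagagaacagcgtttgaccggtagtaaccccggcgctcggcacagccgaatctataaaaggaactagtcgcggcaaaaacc

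The *Hmgcs1* stretch held 3 CCAAT boxes, all on the reverse strand, at 237, 176 and 45 bases before the RefSeq start, and the match to the sterol element at 137 bases before it. The *Mvk* stretch held 5 boxes, that of *Mvd* 2 and that of *Fasn* 3, of which 1 pair shares bases on opposite strands, and that of *Abca1* held none. Over the windows, CCAAT was found in 23 of 29 genes (79.3%), including 14 of the 14 sterol enzymes with a window, against 43.1% of the 8627 tested genes with a window and 37.4% of all 32851 windows. A gene with more than 1 window was counted where any of its windows held the motif, which applied to 6 of the 29 genes and to the tested genes alike. Part of these matches lay inside the annotated genes. The one window of *Tm7sf2* lies wholly inside the gene and that of *Msmo1* mostly so, and *Dhcr7* counted through a window that starts inside the gene and had no CCAAT in the window at the gene start. Where at least 100 bases of a window lay before the gene, those bases held CCAAT in 9 of 12 sterol enzymes and in 16 of 25 of all the genes, a share that was not computed for the other tested genes. The genes with CCAAT in a window and none in that stretch were *Idi1*, *Cyp51*, *Dhcr7* and *Acly*, which rose, and *Acss2*, which fell. The 6 genes without CCAAT in any window were *Scap*, *Acaca*, *Elovl6*, *Fads2*, *Abca1* and *Nr1h2*. Of these, *Elovl6* and *Fads2* rose in both genotypes, *Acaca* was called higher in KO alone, and *Abca1* fell in both. *Scap* and *Nr1h2* were called in neither, and nor were *Srebf1* and *Srebf2*, which held the box in their stretches. The GC box GGGCGG was found in 23 of 29 (79.3%) against 67.9% of tested genes, and the E-box CACGTG in 7 of 29 (24.1%) against 12.1%. The sterol element was found in *Hmgcs1* alone of the 29 (3.45%) against 1.36% of tested genes. The direct repeat bound by liver X receptors was found in none of the 29, in none of the tested genes and in 0.0152% of all windows, so its absence here says nothing of these genes. These are matches of letters on both strands in short windows, and elements outside the windows were not searched.

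Most of the genes rose over the culture. In WT, 27 of the 36 were higher at day 5 than at day 0, 3 were lower and 6 did not pass an adjusted p of 0.05. Over all 12597 tested genes 48.3% were called in that comparison, 24.7% higher and 23.6% lower. The 36 were chosen with earlier results of these data known, so these shares describe them and do not test them as a set. The median log2 fold change of the 36 was 1.67, against -0.04 over all tested genes. In KO the counts were again 27 higher, 3 lower and 6 not called, against a background of 50.2% called, 26.2% higher and 24% lower, and the median was 1.74 against -0.05. The 27 include *Scd1* and *Fads2*, which passed the filter on low counts through day 5 alone and could enter only as genes that rose. Without them 25 of 34 were higher and 3 lower in WT and likewise in KO, 82.4% called in each, with medians of 1.60 and 1.52. The genes at 3 counts or fewer at day 0 lie above the median at their lower bounds too, so the medians do not depend on their fitted values. The genes called in both comparisons numbered 28, of which 25 rose and 3 (*Abca1*, *Abcg1* and *Acss2*) fell. *Elovl5* and *Insig2* were called in WT alone and *Acaca* and *Elovl1* in KO alone, and none of these 4 was called in the interaction. *Srebf1*, *Srebf2*, *Scap* and *Nr1h2* were called in neither.

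Together the 36 genes took between 0.217% and 0.260% of the assigned reads at day 0 and between 0.542% and 0.650% at day 5. The libraries of day 5 and day 0 did not overlap for 35 of the 36 in WT, where this held for 73.7% of tested genes, and for 33 in KO, where it held for 77.9%. In bulk RNA, fewer cells of a type and less RNA per cell cannot be told apart. The 4 genes *Mki67*, *Top2a*, *Ccnb1* and *Cdk1*, which are expressed in dividing cells, moved with the culture, from a sum of between 19.3 and 27.9 CPM at day 0 to between 3494 and 3770 CPM at day 5, and their part in the changes below was not tested. The summed level of *Ighm*, *Cd79a*, *Cd79b* and *Ms4a1* went from between 2042 and 2442 CPM to between 1459 and 1638 CPM, and the share of reads from mitochondrial genes from between 1.67% and 1.96% to between 0.449% and 0.615%, and the part of these was not tested either. The 6 myeloid markers *Lyz2*, *Cd14*, *Csf1r*, *Itgam*, *Adgre1* and *Fcer1g* summed to between 10.7 and 19.0 CPM at day 0 and between 4.23 and 6.63 CPM at day 5.

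**Figure D1:**
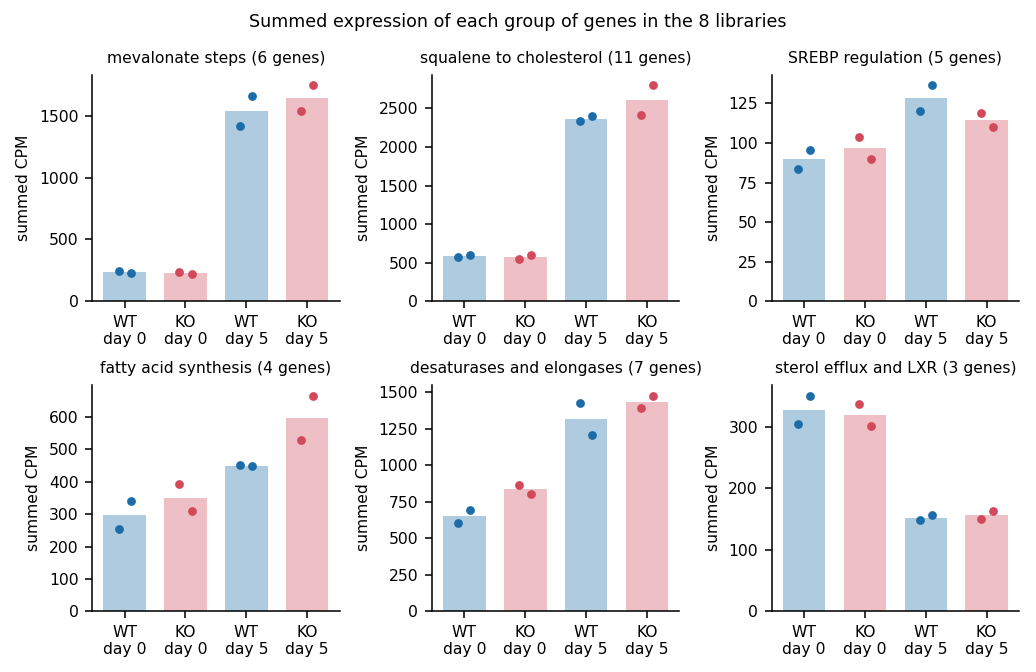
Summed CPM of the genes of each role in the 8 libraries, with points for libraries and bars for the mean of the 2 libraries of a group. The 11 enzymes from squalene to cholesterol stood at 545 to 600 CPM at day 0 and at 2339 to 2798 CPM at day 5, and the efflux group is the one whose sum is lower at day 5.

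The enzymes that make cholesterol rose without exception. All 17, from the mevalonate steps to the last reduction, were called higher in WT and all 17 in KO, with median log2 fold changes of 1.88 and 2.25. Their summed level was 816 and 824 CPM in WT at day 0 and 780 and 818 CPM in KO, and by day 5 it was between 3761 and 4063 CPM in WT and between 3959 and 4545 CPM in KO.

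*Hmgcs1* (chr13:119690379-119708260), which joins acetyl-CoA and acetoacetyl-CoA at the entry of the pathway, was the most abundant of the 36 per length of transcript at day 5. It was at 163 and 149 CPM in WT and 159 and 143 CPM in KO at day 0. At day 5 it was at 1125 and 1363 CPM in WT and at 1222 and 1355 CPM in KO. The lowest library at day 5 was thus far above the highest at day 0, with 7.99-fold in WT (log2 2.997, SE 0.14, adjusted p = 3.55e-09) and 8.52-fold in KO (log2 3.09, SE 0.14, adjusted p = 2.28e-09). Its promoter is the 1 printed above with a sterol element. *Idi1* (chr13:8885501-8892451), which isomerises the 5-carbon units of the chain, was at 4.47 and 3.39 CPM in WT and 3.17 and 4.59 CPM in KO at day 0. After culture it was at 27.3 and 35.4 CPM in WT and 28.1 and 32.6 CPM in KO, and the log2 fold change was 2.97 (SE 0.28) in WT and 3.01 (SE 0.27) in KO. The pair rose by a like factor from very different levels.

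The other mevalonate enzymes rose by 2.67-fold to 7.13-fold in WT. *Mvk* and *Pmvk*, the kinases that phosphorylate mevalonate and its phosphate in turn, rose by log2 1.42 (SE 0.28) and 1.64 (SE 0.19) in WT and by 2.25 (SE 0.26) and 1.89 (SE 0.18) in KO. *Mvd*, the decarboxylase that makes isopentenyl diphosphate, rose by 1.76 in WT and 2.20 in KO. *Fdps*, farnesyl diphosphate synthase, rose by 2.83 in WT and 2.75 in KO. Of its exon length, 26.7% is shared with another gene on the same strand, so some of its reads may have been set aside by the counting.

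*Sqle* (chr15:59315077-59331192), the squalene epoxidase that adds the first oxygen of the sterol branch, rose most among the 17. It was at 37.9 and 26.0 CPM in WT at day 0 and at 26.2 and 13.8 CPM in KO. At day 5 it reached 343 and 334 CPM in WT and 409 and 452 CPM in KO. This was 10.5-fold in WT (log2 3.39, SE 0.24, adjusted p = 2.14e-07) and 20.8-fold in KO (log2 4.38, SE 0.25, adjusted p = 2.19e-08). Without replicate 1 of KO at day 0 the KO value was 4.998. The libraries of KO lay lower at the start, with an overlap, and higher at the end, without one. *Fdft1* (chr14:63145150-63179578), squalene synthase, was at 37.2 and 47.5 CPM in WT and 30.2 and 38.0 CPM in KO at day 0. At day 5 it was at 228 and 235 CPM in WT and 272 and 329 CPM in KO, a log2 fold change of 2.46 (SE 0.17) and 3.15 (SE 0.17). Exons of the other strand cover 18.3% of its exon length, and the strand setting of the counting is not given. *Cyp51* (chr5:4081145-4104746), the lanosterol demethylase, was at 68.9 and 73.0 CPM in WT and 57.7 and 60.9 CPM in KO at day 0. In the day 5 libraries it was at 472 and 440 CPM in WT and 487 and 558 CPM in KO. The log2 fold change was 2.68 (SE 0.13) in WT and 3.14 (SE 0.13) in KO.

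The remaining enzymes of the sterol branch fell into larger and smaller rises. *Lss* closes the ring to lanosterol, and *Msmo1* takes part in the removal of the methyl groups. They rose by log2 2.69 and 2.52 in WT and by 2.72 and 2.37 in KO. *Sc5d*, *Tm7sf2*, *Hsd17b7* and *Nsdhl*, which carry out desaturation, reduction and demethylation of the ring, rose by between 1.56 and 1.88 in WT and between 1.46 and 2.16 in KO. The smallest rises were those of *Ebp*, the sterol isomerase, and *Dhcr7*, the final reductase. *Ebp* rose by 0.90 in WT and 0.83 in KO from a day 0 level of 143 to 167 CPM, the highest per length among the sterol enzymes at that day. *Dhcr7* rose by 0.51 (SE 0.19, adjusted p = 0.0383) in WT and 1.04 (SE 0.18, adjusted p = 0.00045) in KO. The WT call of *Dhcr7* was lost when library totals alone set the scale (adjusted p = 0.112), without the filter on low counts (0.053) and without any 1 of the 4 WT libraries (adjusted p between 0.076 and 0.161).

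**Figure D2:**
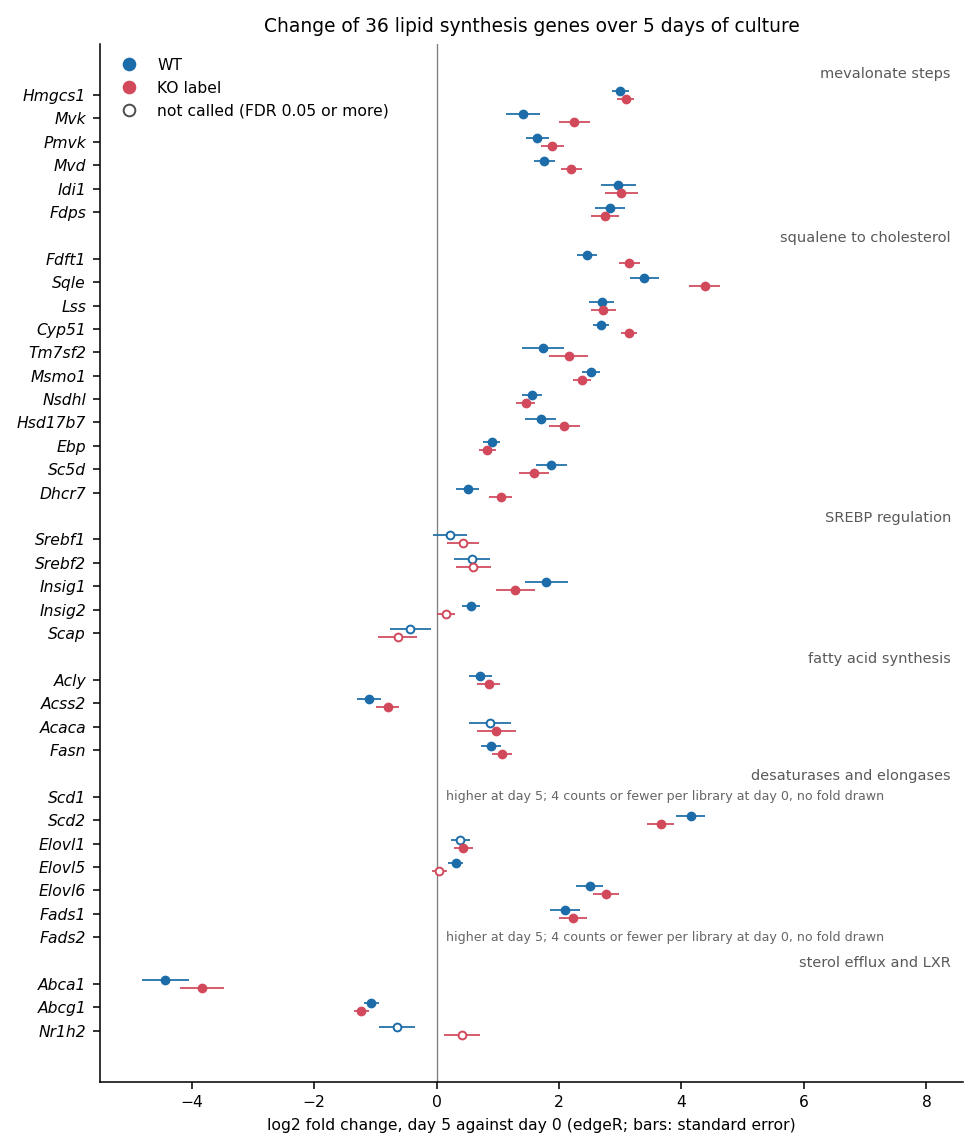
Log2 fold change of each gene from day 0 to day 5 in WT (blue) and KO (red), grouped by role, with the standard error of the edgeR fit as bars and open circles for genes that were not called. No fold is drawn for *Scd1* and *Fads2*, which are marked in words. The sterol enzymes all lie to the right of 0, from 0.51 for *Dhcr7* in WT to 4.38 for *Sqle* in KO, while *Abca1*, *Abcg1* and *Acss2* lie to the left.

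The genes of the SREBP factors themselves moved little in comparison. *Srebf2*, the factor best known for sterol genes, was at 7.51 and 9.72 CPM in WT and 9.18 and 6.24 CPM in KO at day 0, and at 11.1 and 14.7 CPM in WT and 11.96 and 11.9 CPM in KO at day 5. All 4 libraries of day 5 were above all 4 of day 0, yet with log2 fold changes of 0.58 (SE 0.30, adjusted p = 0.128) and 0.60 (SE 0.29, adjusted p = 0.101) it was called in neither genotype. With an offset for GC content and exon length it was called in WT (adjusted p = 0.0185), and without replicate 1 of KO at day 0 it was called in KO (adjusted p = 0.0466). *Srebf1*, the factor more often tied to fatty acid genes, was at 8.05 and 9.72 CPM in WT and 8.58 and 7.89 CPM in KO at day 0. At day 5 it was at 9.17 and 11.6 CPM in WT and 11.04 and 11.4 CPM in KO. Its log2 fold changes of 0.22 (SE 0.28) and 0.44 (SE 0.26) were not called.

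*Insig1* (chr5:28071363-28078662), an anchor of SREBP in the endoplasmic reticulum that is itself a known SREBP target, rose in both genotypes. It was at 3.76 and 3.17 CPM in WT and 4.03 and 5.32 CPM in KO at day 0, and at 9.70 and 14.7 CPM in WT and 10.1 and 12.3 CPM in KO at day 5. The log2 fold change was 1.79 (SE 0.35, adjusted p = 0.00107) in WT and 1.29 (SE 0.32, adjusted p = 0.00522) in KO, where the call was lost without replicate 2 of KO at day 5 (adjusted p = 0.052). *Insig2*, its relative, was far more abundant at day 0, at 53.1 and 60.8 CPM in WT and 67.9 and 60.7 CPM in KO. On day 5 it stood at 82.7 and 85.3 CPM in WT and 75.6 and 68.5 CPM in KO. It rose in WT by 0.56 (SE 0.15, adjusted p = 0.00814), a call lost without replicate 1 of WT at day 0 (adjusted p = 0.0742), and in KO the log2 fold change was 0.16 (SE 0.15, adjusted p = 0.382). The difference between the genotypes in that change was not called. *Scap*, the escort protein, was at 11.4 and 11.98 CPM in WT and 14.3 and 9.91 CPM in KO at day 0. It was at 7.41 and 10.1 CPM in WT and 10.1 and 5.68 CPM in KO at day 5. Its log2 fold changes were -0.43 (SE 0.33) and -0.63 (SE 0.32), neither of them called, and exons of the other strand cover 13.2% of its exon length.

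Fatty acid synthesis changed less than sterol synthesis, and in both directions. *Fasn*, fatty acid synthase, rose from 25.5 to 29.0 CPM over the 4 libraries of day 0 to 48.9 to 57.6 CPM over those of day 5, 1.86-fold in WT (log2 0.89, SE 0.17, adjusted p = 0.000843) and 2.099-fold in KO (log2 1.07, SE 0.16, adjusted p = 0.000154). *Acly*, which releases acetyl-CoA from citrate, rose by 0.72 (SE 0.18) in WT and 0.85 (SE 0.18) in KO, the WT call being lost without replicate 1 of WT at day 0 (adjusted p = 0.0949). *Acaca*, acetyl-CoA carboxylase, was at 3.58 to 5.88 CPM at day 0 and 8.29 to 10.5 CPM at day 5, and was called in KO (log2 0.97, SE 0.32, adjusted p = 0.0236) but not in WT (0.88, SE 0.34, adjusted p = 0.0518). Both of these calls changed under several of the alternatives.

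*Acss2* (chr2:155517948-155585724), which makes acetyl-CoA from acetate and so feeds the same pool as *Acly*, fell. It was at 33.6 and 40.9 CPM in WT and 37.4 and 35.8 CPM in KO at day 0, and at 15.7 and 19.3 CPM in WT and 21.2 and 21.0 CPM in KO at day 5. The libraries of the 2 days were apart in both genotypes, with a fall by 1.10 on the log2 scale in WT (SE 0.20, adjusted p = 0.000595) and by 0.80 in KO (SE 0.19, adjusted p = 0.00371).

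The desaturases *Scd1* and *Fads2* went from the edge of detection to a measured level, and the order of their rises is not settled at these counts. *Scd1* (chr19:44394455-44407879), a stearoyl-CoA desaturase that makes oleate and palmitoleate, had 0 counts in both WT libraries and in replicate 1 of KO at day 0 and 4 counts in replicate 2 of KO. At day 5 it was at 43.4 and 52.3 CPM in WT and 57.2 and 59.8 CPM in KO, from 217 to 316 counts per library. Against a floor of 3 counts per library it was at least 78.8-fold higher at day 5 in WT. In KO the reads of the 2 libraries of a day, pooled, gave a ratio of 250.2 with a 95% interval of 97.2 to 921, which covers counting error only. All of the day 0 reads in that ratio came from 1 library, replicate 2: against it alone the ratio was 79.7 (31.0 to 293), and against the floor of replicate 1 alone the gene was at least 227-fold higher. *Fads2* (chr19:10062765-10101746), the delta-6 desaturase of polyunsaturated fatty acids, had 2 and 0 counts in WT and 1 and 0 in KO at day 0. In the libraries of day 5 it had 34 and 29 counts in WT and 40 and 34 in KO. It was at least 10.7-fold higher at day 5 in WT and at least 17.1-fold higher in KO. Both genes passed the filter on low counts through their day 5 libraries alone, so they could enter the test only as genes that rose. Their fitted fold changes over the culture, which depend on the count added before the logarithm, are not given.

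*Scd2* (chr19:44293674-44306864), the paralogue of *Scd1*, was already present at day 0, at 13.1 and 23.5 CPM in WT and 29.7 and 20.7 CPM in KO. After 5 days it was at 338 and 303 CPM in WT and 326 and 323 CPM in KO, 17.8-fold (log2 4.15, SE 0.24, adjusted p = 2.79e-08) and 12.6-fold (log2 3.66, SE 0.22, adjusted p = 4.41e-08). *Scd1* and *Scd2* are near-related in sequence, and reads that fit both equally were set aside by the counting. *Fads1*, the delta-5 desaturase, rose by log2 2.095 (SE 0.25) in WT and 2.22 (SE 0.23) in KO. *Elovl6*, the elongase that takes palmitate to stearate, rose by 2.50 (SE 0.22) in WT and 2.77 (SE 0.22) in KO.

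The elongases of longer chains hardly moved. *Elovl5*, which lengthens polyunsaturated fatty acids, had the highest level per length of the 36 at day 0, at 407 and 481 CPM in WT and 632 and 586 CPM in KO. In the cultured cells it was at 577 and 528 CPM in WT and 605 and 650.2 CPM in KO. It rose in WT by 0.32 (SE 0.12, adjusted p = 0.0492), a call lost without replicate 1 of WT at either day, without either KO library of day 5 and under several other settings, and in KO the value was 0.04 (SE 0.12, adjusted p = 0.79). *Elovl1*, an elongase of saturated very long chains, was at 155 to 176 CPM at day 0 and 167 to 239 CPM at day 5, and its log2 fold change was 0.38 (SE 0.16, adjusted p = 0.058) in WT and 0.44 (SE 0.15, adjusted p = 0.0313) in KO. The KO call was lost with library totals as the scale (adjusted p = 0.13), with the GC content and exon length offset (0.199), without the filter on low counts (0.0651) and without any 1 library of day 0 or of KO at day 5 (between 0.0508 and 0.127).

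The efflux pumps went the other way. *Abca1* (chr4:53030787-53159895), which loads cholesterol onto apolipoproteins, was at 29.2 and 32.6 CPM in WT and 30.2 and 20.4 CPM in KO at day 0. By day 5 it stood at 1.94 and 0.723 CPM in WT and 1.47 and 2.08 CPM in KO, from 3 to 11 counts per library. It fell 21.6-fold in WT (log2 -4.43, SE 0.38, adjusted p = 1.18e-06) and 14.2-fold in KO (log2 -3.83, SE 0.36, adjusted p = 2.33e-06), the largest falls of the 36. *Abcg1* (chr17:31057675-31117988), which passes cholesterol to mature lipoprotein particles, was at 226 and 258 CPM in WT and 269 and 255 CPM in KO at day 0. By day 5 it was at 121 and 109 CPM in WT and 115 and 109 CPM in KO, a fall by 1.06 on the log2 scale in WT (SE 0.13, adjusted p = 2.38e-05) and by 1.23 in KO (SE 0.13, adjusted p = 6.13e-06). *Abcg1* fell less than *Abca1* and remained well above the floor. The WT value of *Abca1* was -5.37 without replicate 1 of WT at day 5 and -3.96 without replicate 2, the lowest and highest values over the alternatives. Myeloid markers moved in the same direction over the culture: *Csf1r* fell by 1.19 on the log2 scale in WT (adjusted p = 0.021) and by 1.18 in KO (adjusted p = 0.0156), and *Itgam* fell by 2.98 in WT (adjusted p = 0.00191) and had a value of -0.79 in KO (adjusted p = 0.242). Their part in the falls of *Abca1* and *Abcg1* was not tested.

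*Nr1h2*, the liver X receptor beta, was called in neither genotype. It was at 49.9 and 60.6 CPM in WT and 37.6 and 25.5 CPM in KO at day 0, and at 25.2 and 46.0 CPM in WT and 32.9 and 52.1 CPM in KO at day 5. Its log2 fold change was -0.65 (SE 0.30, adjusted p = 0.0906) in WT and 0.41 (SE 0.29, adjusted p = 0.257) in KO, and the 2 libraries of each day 5 group lay far apart. Without the filter on low counts, or without replicate 2 of WT at day 5, the WT value was called (adjusted p = 0.0182 and 0.0169).

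**Figure D3:**
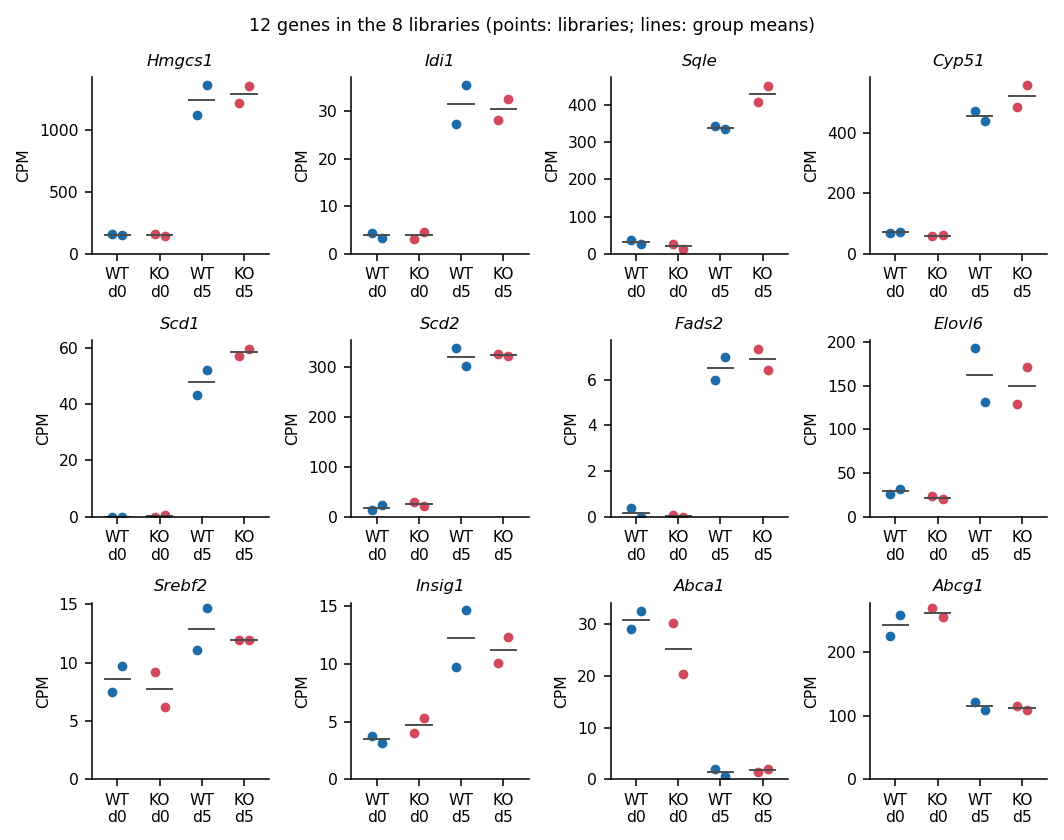
CPM of 12 of the genes in each library, with points for libraries and lines for the mean of each group of 2, on linear axes that start at 0. *Scd1* and *Fads2* are at or near 0 at day 0 in every library, *Abca1* is near 0 at day 5, and the points of WT and KO of the same day lie close together in most panels.

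The order of the genes by level changed with the culture. Per kilobase of exon, the highest mean CPM at day 0 was that of *Elovl5* (126 in WT and 173 in KO), followed by *Ebp* (66.6 and 67.9), *Elovl1* (57.1 and 63.1) and *Acly* (42.9 and 53.4). At day 5 *Hmgcs1* led (271 in WT and 281 in KO), before *Elovl5* (157 and 178), *Ebp* (124 and 121) and *Cyp51* (103 and 118). *Abca1* had become the lowest of the 36, at 0.128 and 0.171 CPM per kilobase. Exon lengths are those of all annotated exons of a gene, so these levels are approximate.

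No difference between the libraries labelled KO and WT was called in these genes, and few were called over all tested genes. At day 0 none of the 36 was called (background 1.8% of tested genes), and at day 5 none (background 1.63%). The test was the same, with an adjusted p under 0.05. Among 36 genes a count of 0 lies near those shares. At an unadjusted p under 0.05 there were 3 at day 0 (8.33%, against 13.8% of all tested genes) and 5 at day 5 (13.9% against 14.1%). The 95% interval of the difference lay within 2-fold in either direction for 28 of the 36 genes at day 0 and for 31 at day 5. For the other 8 and 5 genes a 2-fold difference lies inside the interval, and the missing call does not show that they were alike. Intervals were not counted in this way over all tested genes.

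At day 0 the lowest adjusted p was that of *Elovl5*, whose KO libraries at 632 and 586 CPM were both above the WT libraries at 407 and 481 CPM. The log2 difference was 0.46 (SE 0.12, 95% interval 0.19 to 0.72, adjusted p = 0.0953), and the gene was called by DESeq2 (adjusted p = 0.0287), without the filter on low counts (0.0362) and without replicate 2 of WT at day 5 (0.0391). *Nr1h2* was lower in KO by 0.79 on the log2 scale (log2 -0.79, SE 0.29, adjusted p = 0.239, and 0.0454 without the filter on low counts), with libraries that did not overlap. *Sqle* had a value of -0.64 (SE 0.25, adjusted p = 0.27) with overlapping libraries, and was called without replicate 1 of KO at day 0 (-1.23, adjusted p = 0.0314), the deepest library of the 8. The groups did not overlap for 7 of the 36 genes at day 0, 19.4%, where this held for 43.4% of tested genes.

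At day 5 more of the 36 differences lay above 0 than below it. The difference was above 0 for 26 of the 36, against 49.9% of all tested genes, with a median of 0.15. The groups did not overlap for 14 genes (38.9%, where this held for 45.6% of tested genes). KO was higher without overlap in 13 of the 36 (36.1%), against 25% of all tested genes, and lower without overlap in 1 of the 36 (2.78%), *Insig2*, against 20.7%. The lowest adjusted p was that of *Mvk*, at 15.2 and 16.9 CPM in WT and 23.0 and 30.9 CPM in KO, a log2 difference of 0.75 (SE 0.24, 95% interval 0.22 to 1.28, adjusted p = 0.163). *Fads1* (0.56), *Acly* (0.45), *Mvd* (0.39) and *Fdft1* (0.37) also had an unadjusted p under 0.05, with adjusted p between 0.24 and 0.295. Under every alternative tried none of the 36 was called at day 5. *Cd8a* itself was higher in KO at day 5 by log2 0.60 (SE 0.11, adjusted p = 0.0155), and whether this bears on these values was not tested.

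**Figure D4:**
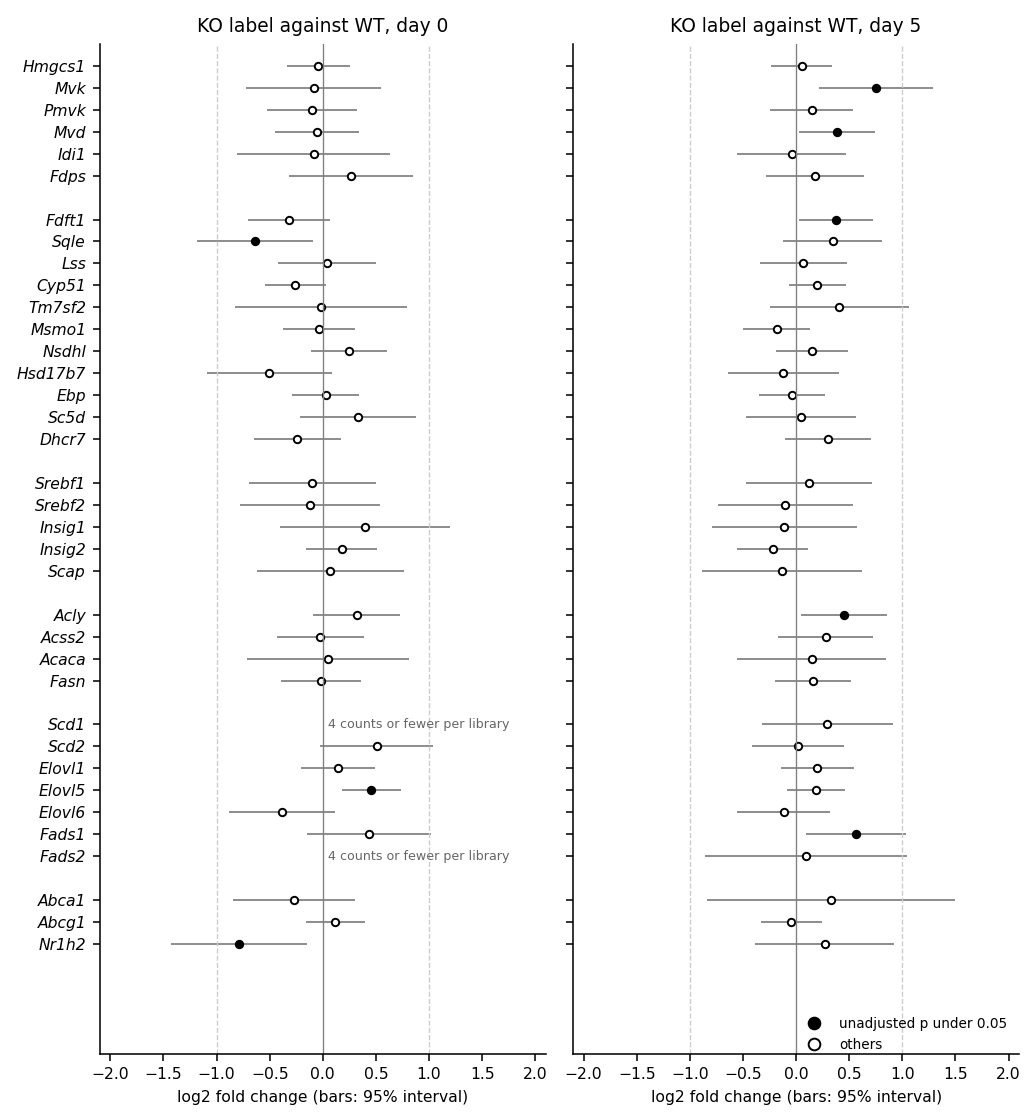
Log2 difference between the libraries labelled KO and WT for each gene at day 0 (left) and day 5 (right), with 95% intervals as bars, dashed lines at a 2-fold difference, and filled circles for an unadjusted p under 0.05. *Scd1* and *Fads2* are drawn at day 5 alone. No gene passed an adjusted p of 0.05, and at day 5 26 of the 36 values lie to the right of 0.

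The interaction asks whether the change over the culture differed between the labels. It was called for none of the 36 genes, against 0.159% of all tested genes, and 5 genes had an unadjusted p under 0.05 (13.9%, against 12.4% of all tested genes). *Sqle* had the lowest adjusted p, with a difference of 0.98 on the log2 scale (SE 0.33, 95% interval 0.28 to 1.69, adjusted p = 0.257). It was called without the filter on low counts (0.95, adjusted p = 0.0214), and its value was 1.58 without replicate 1 of KO at day 0 and 0.64 without replicate 2, the highest and the lowest over the alternatives tried, neither of them called. The others were *Fdft1* (0.69), *Cyp51* (0.46), *Mvk* (0.84) and *Nr1h2* (1.06), all 5 with the larger value in KO. The interval lay within 2-fold for 20 of the 36, so for the other 16 a 2-fold difference in the culture response lies inside it.

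Other genes of lipid metabolism are given beside the 36 by their lists, which were also chosen with earlier results of these data known. Against 48.3% of all tested genes called in WT and 50.2% in KO, the shares were 60% and 80% for other sterol genes, 56.2% and 56.2% for other fatty acid genes, and 55% and 55% for fatty acid oxidation, where the 36 stood at 83.3% in both (82.4% without *Scd1* and *Fads2*). Of 15 tested genes from a list of other sterol genes, covering uptake, storage, transport and SREBP processing, 6 rose and 3 fell in WT and 7 rose and 5 fell in KO. The 3 that fell in WT were *Mylip*, which marks lipoprotein receptors for degradation, *Mbtps1*, the first protease that cleaves SREBP, and *Lipa*, the lysosomal acid lipase (log2 -1.69, -1.68 and -1.33). Of 16 other tested genes of fatty acid metabolism 8 rose and 1 fell in WT, led by the fatty acid binding protein *Fabp5* (3.52), the citrate carrier *Slc25a1* (2.49) and the acyl-CoA synthetase *Acsl3* (1.85), and 9 rose and none fell in KO. Of 20 tested genes of fatty acid oxidation 8 rose and 3 fell in WT and 11 rose and none fell in KO, with medians of 0.51 and 0.66 against 1.67 and 1.74 for the 36.

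In these lists 4 genes were called between the labels, where 1.8% of all tested genes were called at day 0 and 1.63% at day 5. The calls at day 0 were 1 of 15 other sterol genes, 1 of 16 other fatty acid genes and 1 of 20 fatty acid oxidation genes. The call at day 5 was 1 of 16 other fatty acid genes. Whether the lists differ from all tested genes in this was not tested. At day 0 *Npc2*, a lysosomal cholesterol carrier, *Hacd3*, a dehydratase of fatty acid elongation, and *Acaa2*, the last enzyme of the oxidation cycle, were lower in KO (log2 -0.53, -1.01 and -0.54, adjusted p = 0.0318, 0.00415 and 0.0372). At day 5 *Lpin1*, a phosphatidate phosphatase, was higher in KO (log2 0.72, adjusted p = 0.0311).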

How the data were processed

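RNA-seq of 8 libraries was read as deposited: the authors gave raw read counts per gene symbol, 1 table per library, not normalized and not pooled. The submitters' processing notes name HISAT2 2.1.0, HTSeq 0.11.1 and the build mm10/GRCm38, and per the labels libraries were made with an NEBNext Ultra RNA kit and sequenced to 50 bp. The annotation and strand setting are not given in the sources used here. Between 21.2% and 24.5% of the records of a library were assigned to a gene. The rest stood in the summary lines of the counting program, reads with more than 1 alignment among them, and were left out.

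Counts were fitted with edgeR 4.0.16 (R 4.3.3) in 1 quasi-likelihood model over the 4 groups, with TMM factors and the default filter (minimum count 10), which left 12597 genes. Tests were two-sided, adjusted by the Benjamini-Hochberg method over all 12597 genes, and called at an adjusted p under 0.05. CPM values used TMM-scaled library sizes. Standard errors and 95% intervals come from the model, since 2 libraries per group give no stable spread of their own. A gene at 3 counts or fewer in every library of a group was compared against that floor, and floors and counting intervals cover counting error only. The scripts were tested on simulated data. Symbols were matched to GENCODE M21 (46985 of 48321) for lengths, positions and exon overlap, and positions are on GRCm38.

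The genes and lists were chosen with earlier results of these data known. Values in every library are given for the 6 largest called rises and up to 6 largest called falls of each culture comparison and for *Srebf1*, *Srebf2*, *Insig1*, *Insig2*, *Scap*, *Nr1h2*, *Abca1* and *Abcg1*. From the other lists at most 3 genes per direction are named, with any gene called between the labels, and some listed genes are counted but not reported here by name. Alternatives were library totals or DESeq2 size factors as the scale, no filter or a minimum of 5 CPM in at least 2 libraries, a fit to the 4 libraries compared, DESeq2 1.42.0, the edgeR 4 form of the test, a GC content and exon length offset (loess span 0.3), the replicate number as a block, and leaving out each library in turn.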

Additional observations from a re-analysis of the deposited data

Results flagged for a closer look

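*Hacd3*, a dehydratase of fatty acid elongation that is not among the 36 genes, changed over the culture in opposite directions under the 2 genotype labels, and the difference itself was tested. It was at 134 and 133 CPM in WT and 58.9 and 74.1 CPM in KO at day 0, and at 83.3 and 95.7 CPM in WT and 106 and 103 CPM in KO at day 5. The log2 fold change was -0.58 (SE 0.15) in WT and 0.66 (SE 0.15) in KO, and the interaction was 1.24 (SE 0.21, adjusted p = 0.042, quasi-likelihood test of edgeR, Benjamini-Hochberg). With groups of 2 libraries, single libraries that stand apart from their group were not looked for.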

How the results depend on the processing

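Of the 36 genes, 28 kept their side of the threshold in WT and 32 in KO under every alternative to the culture comparisons, among them 26 of the 30 called genes in WT and 27 of the 30 in KO, and no value changed its sign while called. The number called, 30 in each, lay between 26 and 31 in WT and between 27 and 30 in KO when 1 library was left out. In WT, *Elovl5*, *Dhcr7*, *Acly* and *Insig2* lost their calls and *Acaca*, *Elovl1*, *Nr1h2* and *Srebf2* gained one under some alternatives. In KO, *Acaca* lost its call without replicate 2 of day 0 or either library of day 5 and under 3 other settings, *Elovl1* without any single library of KO or of WT at day 0 and under 3 other settings, and *Insig1* without replicate 2 of day 5. Between the labels at day 0, the 0 called genes became 2 without the filter on low counts (*Elovl5* and *Nr1h2*), 1 with DESeq2 (*Elovl5*) and 0 to 1 without 1 library. At day 5 the count stayed at 0. For the interaction it became 1 without the filter (*Sqle*, 0.95, adjusted p = 0.0214) and stayed at 0 without any 1 library. The cause was not tested. Deviations of libraries with the same replicate number had correlations of 0.118 (WT) and 0.229 (KO) across days, and 0.00438 and -0.0165 across labels. With 2 libraries per group these values cannot tell whether the numbers pair the libraries. The fit with the replicate number as a block, shared by both labels, called 29 genes in WT, 30 in KO and 0 in each of the other comparisons. With library totals as the scale, the median log2 fold change over all genes shifted by -0.14 (WT) and -0.18 (KO). The split over all genes was then 2668 higher and 3560 lower in WT and 2755 and 3936 in KO, and the medians of the 36 were 1.54 and 1.56. With 2 libraries per group, differences under 2-fold were often within the intervals, and genes under a few counts, such as *Scd1* and *Fads2* at day 0, have a floor and no measured level.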
